A study of Mus musculus with 24 samples.

Results

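The genes described here are 9 genes for amino acid transporters of the plasma membrane, Slc7a1, Slc7a3, Slc7a5, Slc3a2, Slc1a4, Slc1a5, Slc6a9, Slc7a11 and Slc38a2, of the 25844 genes in the deposited tables. They were taken by gene symbol, and all 9 were found and had enough reads to be tested in every comparison. The set was selected on measured values: the read levels of these genes in the 6 groups were known when it was put together. Fold changes of the members, and how many passed a threshold, are therefore a description of chosen genes, and the share of all genes that passed the same threshold is printed beside each first count without anything being read from it.

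The libraries came from forelimb buds of CD1 mouse embryos at gestation day 13, kept in culture for 3 or 24 h. The medium held the solvent DMSO alone (control), 1 µM or 10 µM BPDP (tert-butylphenyl diphenyl phosphate, a flame retardant and plasticizer of the organophosphate ester class). Each of the 6 groups had 4 libraries of poly-A RNA, and every culture, controls included, received the solvent. The labels do not say whether the replicates were separate litters, cultures or pools of limb buds, so the tests measure the spread between these libraries, part of which may be technical.

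Cells take up amino acids through membrane carriers with overlapping substrates, many of which exchange one amino acid for another. Slc7a5 (LAT1, large neutral amino acids) and Slc7a11 (xCT, cystine in exchange for glutamate) reach the cell surface as heterodimers with the glycoprotein encoded by Slc3a2, the heavy chain CD98. Slc7a1 and Slc7a3 (CAT1 and CAT3) carry arginine and lysine, Slc1a4 and Slc1a5 (ASCT1 and ASCT2) exchange small neutral amino acids, Slc6a9 (GlyT1) takes up glycine with sodium, and Slc38a2 (SNAT2) takes up neutral amino acids with sodium. Several of these genes are known targets of ATF4, the transcription factor whose translation rises when kinases of the integrated stress response phosphorylate eIF2, and ATF4 with a C/EBP partner binds a composite element known as the CARE.

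Promoter sequence from RefSeq (GRCm38.p6, the patch release of mm10) was at hand for 6 of the 9 genes, as 9 windows from 250 bases before to 50 bases after an annotated start. No window was matched for Slc7a3, Slc7a5 and Slc1a5. The windows were searched on both strands for a CARE core, TGATGNAA, and for the core of the antioxidant response element (ARE) bound by NRF2, TGACNNNGC. The 4 stretches below each run from 140 bases before to 10 bases after the start and are shown because they hold a match, which is in capitals: a CARE core in Slc1a4 and Slc7a11, and an ARE core in Slc7a1 and Slc38a2. All 4 genes lie on the minus strand, and each sequence reads 5′ to 3′ along the gene. The stretches are chr11:20332704-20332853 for Slc1a4, chr3:50443604-50443753 for Slc7a11, chr5:148399895-148400044 for Slc7a1 and chr15:96699719-96699868 for Slc38a2.
Slc1a4: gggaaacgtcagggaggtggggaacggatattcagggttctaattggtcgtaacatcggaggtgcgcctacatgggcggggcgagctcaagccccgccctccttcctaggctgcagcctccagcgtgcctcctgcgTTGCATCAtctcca
Slc7a11: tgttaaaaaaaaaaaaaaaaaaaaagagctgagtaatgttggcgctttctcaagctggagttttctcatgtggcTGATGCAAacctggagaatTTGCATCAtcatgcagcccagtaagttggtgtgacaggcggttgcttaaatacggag
Slc7a1: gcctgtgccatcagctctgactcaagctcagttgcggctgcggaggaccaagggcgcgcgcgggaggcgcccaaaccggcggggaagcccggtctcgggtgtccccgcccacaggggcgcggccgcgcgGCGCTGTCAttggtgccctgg
Slc38a2: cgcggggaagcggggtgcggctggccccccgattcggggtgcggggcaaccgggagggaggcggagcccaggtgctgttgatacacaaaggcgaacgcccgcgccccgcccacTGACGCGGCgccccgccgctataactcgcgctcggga
Slc7a11 carried its CARE core as 2 matches on opposite strands, the first bases of which lay 66 and 47 bases before the start, and Slc1a4 carried 1 match that spanned the start. Of all 32851 windows in the table, 3.97% held a CARE core and 12.4% an ARE core. Another 2 windows with an ARE core belonged to later starts of Slc6a9, and the window of Slc3a2 held neither core. The RefSeq start coincided with the gene's outer end in the deposited tables for Slc1a4, Slc7a11 and Slc7a1 and lay 30 bases from it for Slc38a2. It lay 752 bases from that end for the first window of Slc6a9 and 9472 bases for Slc3a2. The sequence at the outer end of Slc3a2 was thus not searched. A match describes letters in a window and not a bound site.

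Total counts were 14165947 to 20823058 per library. The forelimb gene Tbx5 was at 181 to 304 CPM (counts scaled to a library total of 1000000) and the hindlimb gene Tbx4 at 14.8 to 23.3, and all 7 limb mesenchyme markers were detected in every library. In 4 libraries the transcript Xist was under 1 CPM, and values without these libraries are given where a count or call of a named gene changed. Each fit left out only those that it contained. At 24 h these were replicate 3 of 10 µM and replicate 3 of 1 µM, and the others were 3 h controls. For 10 µM against DMSO at 24 h this is therefore the fit without treated replicate 3, not a separate check.

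Levels of the 9 genes were compared with each other per kilobase of the gene length in the deposited tables. In the 24 h controls the order of mean CPM per kilobase was Slc38a2 (53.8), Slc3a2 (41.7), Slc7a5 (30.8), Slc1a4 (11.7), Slc1a5 (9.89), Slc7a1 (9.11), Slc6a9 (6.53), Slc7a3 (3.37) and Slc7a11 (2.24). Neighbours in this order had overlapping ranges except at 3 steps, from Slc7a5 to Slc1a4, from Slc7a1 to Slc6a9 and from Slc6a9 to Slc7a3. In the 3 h controls Slc7a5 stood first at 60.6, overlapping Slc38a2 at 50.6. After 24 h with 10 µM BPDP the CD98 heavy chain gene Slc3a2 stood first at 87.7, overlapping Slc7a5 at 72.0, which in turn overlapped Slc38a2 at 65.7, and these 3 stood apart from Slc1a4 at 25.6. The glycine carrier gene Slc6a9, at 12, then lay above Slc1a5 at 9.76, the reverse of their control order, although their ranges overlapped.

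**Figure D1:**
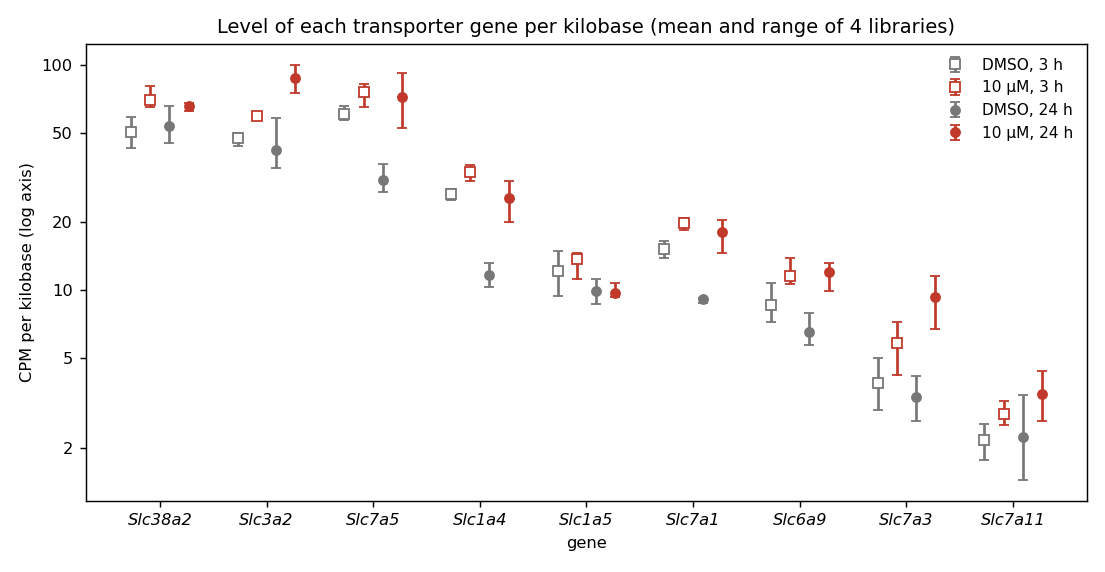
Level of each transporter gene as CPM per kilobase (log axis), genes ordered by the 24 h control mean. Squares are 3 h and circles 24 h, grey is DMSO and red is 10 µM BPDP, each as the mean of 4 libraries with bars from the lowest to the highest library; Slc3a2 reaches 87.7 with 10 µM at 24 h against 41.7 in its controls.

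With 10 µM BPDP for 24 h, 6 of the 9 genes rose by 1.87- to 2.82-fold over DMSO: both cationic amino acid carriers, the LAT1 and CD98 pair, Slc1a4 and Slc6a9. None fell, and Slc1a5, Slc7a11 and Slc38a2 did not pass the test, although Slc7a11 and Slc38a2 passed with the replicate number as a block (values below). In this comparison 2.77% of the 15508 genes tested were called higher, and the median log2 fold change was 1.01 over the 9 genes and -0.0168 over all genes tested. The test was edgeR's quasi-likelihood test with Benjamini-Hochberg adjustment over all genes tested and a threshold of 0.05. The 6 genes were also those whose 4 treated libraries all lay above their 4 controls, as did 5.63% of all genes tested. All 6 stayed called when any 1 of the 8 libraries was left out.

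The arginine and lysine carrier Slc7a1 was at 63.2, 66.3, 66.6 and 65.6 CPM in the 24 h controls (replicates 1 to 4). It was at 134, 106, 147 and 136 CPM with 10 µM BPDP. The controls differed by less than 4 CPM from each other while every treated library was above 100, and the log2 fold change was 1.01 (SE 0.104). Its relative Slc7a3, an X-linked gene with a far lower level, was at 10.4, 11.5, 7.27 and 7.91 CPM in the controls. With 10 µM it was at 25.9, 18.6, 31.9 and 26.5 CPM. The groups did not overlap, and its log2 fold change of 1.50 (SE 0.187) was the largest of the 9.

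Slc7a5, the light chain LAT1, was at 100.4, 96.1, 128 and 109 CPM in the 24 h controls and at 259.6, 184, 323 and 246 CPM with 10 µM BPDP. Every treated library exceeded every control, with a log2 fold change of 1.23 (SE 0.172). Its heavy chain partner Slc3a2 was at 163, 97.7, 107 and 102 CPM in the controls and at 265, 212, 281 and 229 CPM with 10 µM. Control replicate 1 stood well above the other 3 controls, yet below all treated libraries, and the log2 fold change was 1.08 (SE 0.186). The cystine carrier Slc7a11, the other light chain of Slc3a2 in the set, was at 14.7, 23.0, 31.6 and 13.3 CPM in the DMSO libraries and at 32.1, 31.1, 40.4 and 24.3 CPM with 10 µM. The groups overlapped, since control replicate 3 was above 2 treated libraries. Its log2 fold change was 0.64 (SE 0.279) with an edgeR adjusted p of 0.228, which became 0.0202 without control replicate 3 and 0.00373 with the replicate number as a block.

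Slc1a4 was at 40.5, 45.9, 51.9 and 45.1 CPM in the 24 h controls and at 99.3, 78.4, 119 and 105 CPM with 10 µM BPDP, a log2 fold change of 1.15 (SE 0.132) with no overlap. Slc1a5, from the same family and with a similar set of neutral substrates, was at 28.7, 31.5, 24.4 and 26.4 CPM in the controls and at 26.6, 26.3, 26.5 and 30.2 CPM with 10 µM. Its log2 fold change was -0.0019 (SE 0.106). The treated libraries lay inside the range of the controls. The glycine carrier Slc6a9 was at 22.2, 27.6, 19.9 and 21.2 CPM in the controls and at 46.1, 34.6, 45.4 and 41.0 CPM with 10 µM, a log2 fold change of 0.90 (SE 0.122) with no overlap. Slc6a9 overlaps B4galt2 on the opposite strand, a gene at 80.9 to 109 CPM, and whether the counts use strand is not given in the sources used here, so reads of the overlap cannot be told apart.

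Slc38a2, which had the highest mean of the 9 per kilobase in the 24 h controls, was there at 234, 303, 207 and 252 CPM, and was at 303, 311, 289 and 314 CPM with 10 µM BPDP. Control replicate 2 reached the treated range. The log2 fold change was 0.31 (SE 0.0933) with an edgeR adjusted p of 0.07, which became 0.0243 with the replicate block, 0.015 with DESeq2 and 0.017 without control replicate 2. With the block, 8 of the 9 genes were thus called higher, all but Slc1a5, and 4.97% of all genes tested. The authors' deposited table has 7 of the 9 higher at an adjusted p under 0.05, the 6 genes above and Slc38a2, and 4.34% of all genes with an adjusted p.

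**Figure D2:**
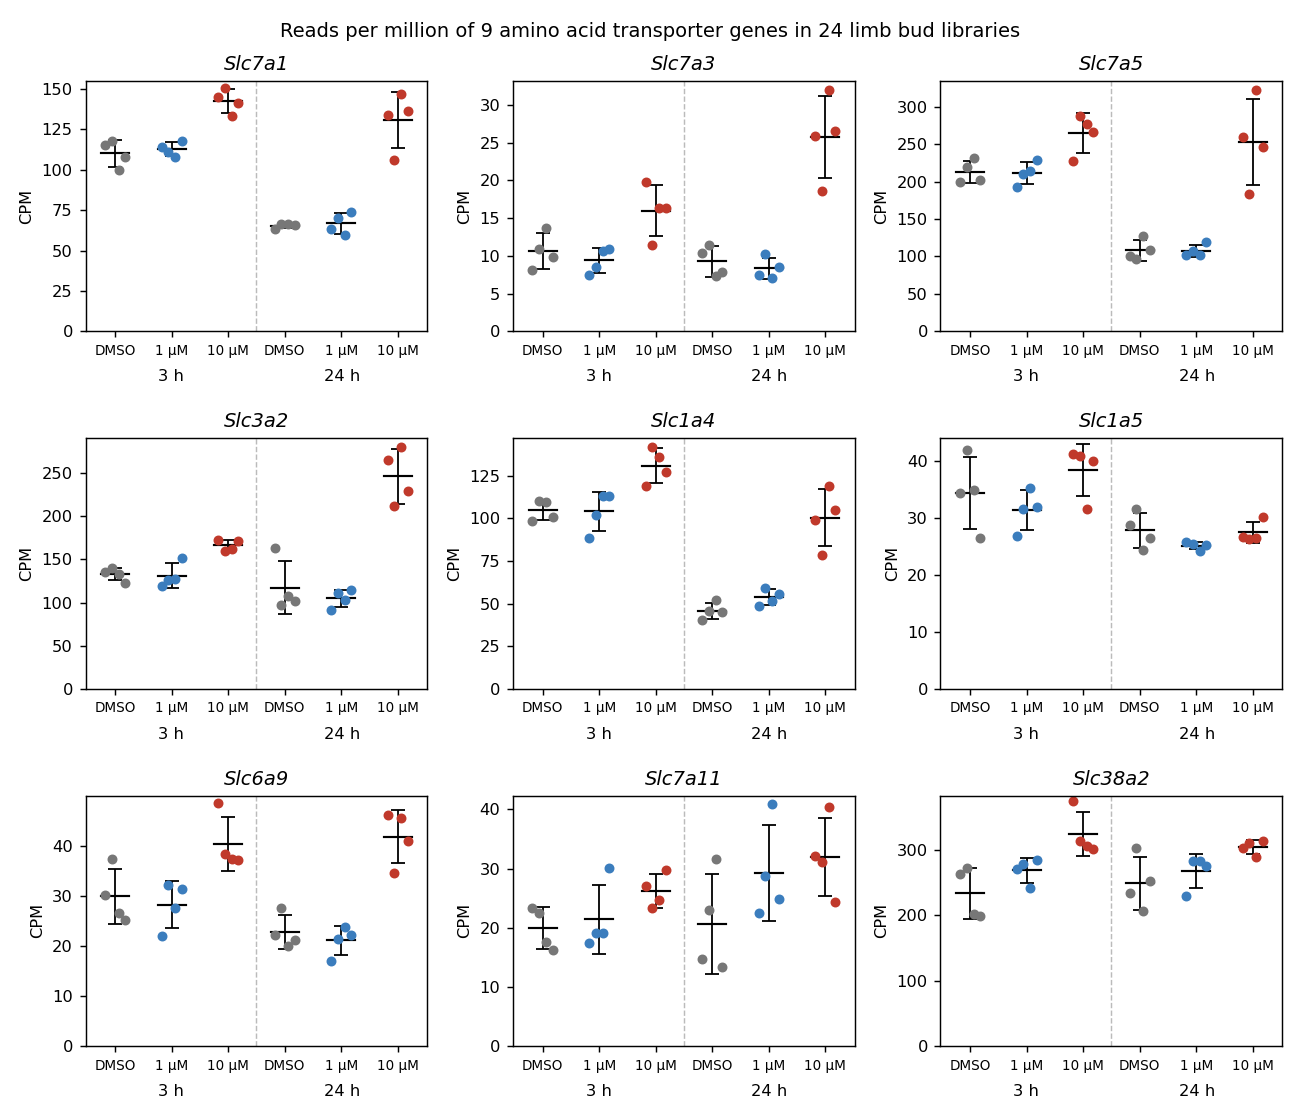
CPM of the 9 genes in each of the 24 libraries (points), with the group mean and SD in black, at 3 h (left of the dashed line) and 24 h (right) in DMSO (grey), 1 µM (blue) and 10 µM BPDP (red). At 24 h the red points lie above all grey and blue points for Slc7a1, Slc7a3, Slc7a5, Slc3a2, Slc1a4 and Slc6a9.

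The treated libraries at 24 h differed among themselves. Replicate 2 was the lowest of the 4 for 6 of the 6 genes that rose, and replicate 3 was the highest for 5 of them. Replicate 2 was likewise the lowest for 7 of the 9 integrated stress response targets that rose, and replicate 3 the highest for 7. Among the 6 genes that rose in the list of stress response kinases and regulators, replicate 4 was lowest for 4 and replicate 2 for 2. Replicate 3 was the highest for 5 of them. How often each replicate was lowest or highest over all genes was not counted. The order is therefore not read as particular to these lists.

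Markers of some cell types differed between the same groups, where 533 of all 15508 genes tested were called lower and 430 higher. The summed level of 6 macrophage markers was 33.3 to 56.3 CPM with 10 µM at 24 h against 141 to 199 CPM in the controls, and all 6 were called lower. The sum of 5 endothelial markers was 155 to 182 CPM against 252 to 301 CPM, and all 5 were called lower. The sum of 5 epidermal markers was 682 to 951 CPM against 1093 to 1735 CPM, with 2 called lower, while 0 of 8 erythroid markers tested were called. Of 7 limb mesenchyme markers 1 was called lower, and 0 of 6 cartilage and 0 of 5 muscle markers were called. The cartilage sum was 8703 to 11944 CPM with 10 µM against 6062 to 9445 CPM in the controls. No marker of these lists was at 0 in any group, and their part in the transporter values was not tested. In RNA of whole limb buds, fewer cells of a type and less RNA per cell cannot be told apart.

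After 3 h with 10 µM BPDP all 9 genes were above DMSO on average, by 0.10 to 0.52 on the log2 scale, but edgeR's adjusted p was under 0.05 for none. Across all 15520 genes tested only 1, or 0.00644%, was called. At an unadjusted p under 0.05 there were 8 of the 9 genes and 15.5% of all genes tested, and the 4 treated libraries lay above the 4 controls for 4 genes, Slc7a1, Slc3a2, Slc1a4 and Slc38a2, as for 7.42% of all genes tested. DESeq2 called 3 of the 9, and 4.05% of all genes to which it gave an adjusted p. The authors' deposited table has the same 3, Slc7a1, Slc3a2 and Slc38a2, and 4.08% of all genes with an adjusted p. Adding the replicate block, edgeR called 2 of the 9, Slc7a1 (adjusted p 0.049) and Slc38a2 (0.0302), and 2.16% of all genes, although whether the numbers pair the libraries at 3 h is not settled. With a term that sets replicates 1 and 2 apart from 3 and 4 it called 4, Slc7a1, Slc3a2, Slc6a9 and Slc38a2, and 2.87% of all genes. Slc38a2 was also called with no count filter (0.0409) and without the low-Xist libraries, all of them controls in this comparison (0.0485).

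Slc38a2 was at 263, 272, 202 and 198 CPM in the 3 h controls and at 374, 314, 306 and 302 CPM with 10 µM. The groups were apart, with treated replicate 1 the highest, and the log2 difference was 0.40 (SE 0.0997, edgeR adjusted p 0.104, DESeq2 0.0109). Slc7a1 was at 115, 118, 99.6 and 108 CPM in the controls and at 145, 150.3, 133 and 141 CPM with 10 µM, a log2 difference of 0.30 (SE 0.0781, edgeR adjusted p 0.111, DESeq2 0.032). Slc3a2 was at 136, 140.2, 133 and 123 CPM in the controls and at 173, 160.2, 162 and 171 CPM with 10 µM, a log2 difference of 0.26 (SE 0.0639, edgeR adjusted p 0.105, DESeq2 0.0102). For Slc7a1 and Slc3a2 this shift was small next to that at 24 h but larger than the log2 range of the 4 libraries within either group, whereas for Slc38a2 it was smaller than the log2 range of the controls. Slc7a3 had the largest log2 difference at this time, 0.52 (SE 0.174), with controls at 8.09, 10.9, 13.7 and 9.86 CPM and treated libraries at 19.8, 11.5, 16.3 and 16.4 CPM that overlapped them.

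The time in culture was itself associated with lower levels of some of these genes. Between the 3 h and the 24 h controls, Slc1a4, Slc7a5 and Slc7a1 fell, and no gene of the 9 rose. The share of all 15640 genes tested that was called lower was 4.1%, and the median log2 change was -0.28 over the 9 genes and 0.00923 over all. Slc1a4 went from 98.4, 110.4, 109.5 and 101 CPM at 3 h to 40.5, 45.9, 51.9 and 45.1 CPM at 24 h, a log2 change of -1.17 (SE 0.0978). Slc7a5 went from 199, 220.1, 231 and 202 CPM to 100.4, 96.1, 128 and 109 CPM, a log2 change of -0.95 (SE 0.112). Slc7a1 fell by 0.73 on the log2 scale (SE 0.0892). For these 3 genes every 24 h control lay below every 3 h control, as for 9.07% of all genes tested.

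Markers of cell types also differed between the 3 h and 24 h controls, where 852 of all 15640 genes tested were called higher and 642 lower. Of 6 cartilage markers 5 were called higher at 24 h, with a summed level of 6062 to 9445 CPM against 3383 to 4935 CPM at 3 h. Of 5 muscle markers 4 were called higher (1252 to 1815 CPM against 776 to 897 CPM), and of 6 macrophage markers 5 were (141 to 199 CPM against 74 to 90.8 CPM). Of 5 epidermal markers 2 were called higher, at sums of 1093 to 1735 CPM against 807 to 1040 CPM. Of 8 erythroid markers tested 1 was called lower, at overlapping sums of 2019 to 3475 CPM against 3122 to 6502 CPM, and 0 of 5 endothelial and 0 of 7 limb mesenchyme markers were called. No marker of these lists was at 0 in either group, and their part in the transporter values over time was not tested.

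The gene of the CD98 heavy chain, Slc3a2, had a log2 change of -0.16 (SE 0.161, edgeR adjusted p 0.609), and without the high control replicate 1 at 24 h the change was -0.38 with an adjusted p of 0.0168. Whether Slc3a2 and Slc7a5 differ from each other in their change was not tested. Slc6a9 had a log2 change of -0.38 (edgeR adjusted p 0.089) and Slc1a5 of -0.28 (0.159). Slc7a3, Slc7a11 and Slc38a2 had changes of -0.19, 0.08 and 0.10.

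**Figure D3:**
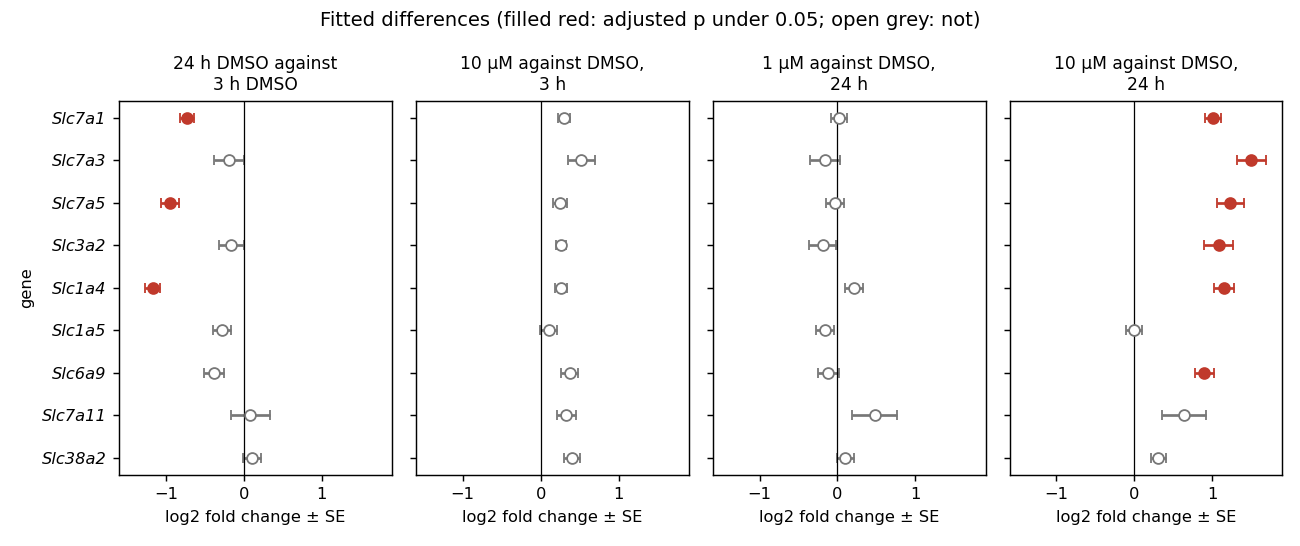
Log2 fold change of the 9 genes with its standard error in 4 comparisons, filled red where the edgeR adjusted p was under 0.05 and open grey where it was not. In the right panel 6 genes stand between 0.90 and 1.50, and in the left panel Slc7a1, Slc7a5 and Slc1a4 stand between -1.17 and -0.73; the 24 h controls enter all panels but that of 3 h.

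Both comparisons use the 24 h controls, so their values are given side by side and not as independent evidence. Measured against the 3 h controls, the 24 h libraries with 10 µM overlapped the earlier range for Slc7a1, Slc7a5, Slc1a4, Slc1a5 and Slc6a9. For example the range of Slc7a5 was 199 to 231 CPM in the 3 h controls, 96.1 to 128 CPM in those of 24 h and 184 to 323 CPM in the later 10 µM libraries. For Slc3a2, Slc7a3, Slc7a11 and Slc38a2 all 4 treated libraries at 24 h lay above all 4 controls at 3 h, as for 13.6% of the 16691 genes tested in the fit of 24 libraries. For Slc3a2 these ranges were 123 to 140.2 CPM and 212 to 281 CPM.

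The difference between the 10 µM and DMSO groups at 24 h was compared with that at 3 h in 1 fit of all 24 libraries. It was larger at 24 h for 5 of the 9 genes, and 0.983% of the 16691 genes tested were called higher. The log2 value at 24 h exceeded that at 3 h by 0.99 for Slc7a5 (SE 0.182), 0.98 for Slc7a3 (SE 0.265), 0.89 for Slc1a4 (SE 0.157), 0.83 for Slc3a2 (SE 0.181) and 0.71 for Slc7a1 (SE 0.127). The result for Slc7a3 was near the threshold, with an edgeR adjusted p of 0.0406 that exceeded 0.05 in 11 of the 24 fits that left out 1 library and reached 0.107. These libraries were replicates 2, 3 and 4 of the 3 h controls and of 10 µM at 3 h, replicates 3 and 4 of the 24 h controls, and replicates 1, 3 and 4 of 10 µM at 24 h. Slc6a9 had a value of 0.54 (SE 0.174, edgeR adjusted p 0.106) and Slc38a2, the gene with the second largest difference at 3 h, had -0.09 (SE 0.129). Without the 4 libraries with low Xist the adjusted p was 0.0709 for Slc7a3 and 0.107 for Slc3a2.

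With 1 µM BPDP none of the 9 genes was called at 3 h or at 24 h by edgeR or DESeq2. The shares of all genes called were 0% at 3 h and 0.077% at 24 h, and an unadjusted p under 0.05 was found for 1 of the 9 genes and 5.19% of all genes at 3 h, and for 0 of the 9 and 5.89% of all genes at 24 h. Log2 differences ran from -0.16 to 0.22 at 3 h and from -0.19 to 0.48 at 24 h. Slc7a5, for example, was at 102, 107, 102 and 119.5 CPM at 24 h, within the range of its controls. The highest value, 0.48 (SE 0.288), belonged to Slc7a11, at 22.5, 28.7, 40.9 and 24.9 CPM. In Slc7a11 replicate 3 was the highest library in all 3 groups at 24 h. The change in the 1 µM difference from 3 to 24 h was called for none of the 9 by edgeR or DESeq2, and for 0.0359% of all genes, with 0 of the 9 and 3.44% of all genes at an unadjusted p under 0.05.

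Between the doses, 10 µM was higher than 1 µM at 24 h for the same 6 genes that were higher than DMSO, where 1.22% of all genes were called higher. The log2 differences were 1.65 for Slc7a3, 1.26 for Slc7a5 and for Slc3a2, 1.02 for Slc6a9, 0.99 for Slc7a1 and 0.93 for Slc1a4. These share the 10 µM libraries with the values above. Slc7a11, which was also above its controls on average at 1 µM, differed by 0.16 (SE 0.232) between the doses. At 3 h the difference between the doses was called by edgeR and DESeq2 for none of the 9 and by edgeR for 0% of all genes. At an unadjusted p under 0.05 there were 4 of the 9 genes and 8.3% of all genes tested.

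Over the 24 libraries the 36 pairs of genes had a median Pearson r of 0.53 between their log CPM, from -0.28 for Slc1a5 and Slc7a11 to 0.97 for Slc7a1 and Slc7a5. These values are a description, since the libraries share the group differences described above and no p is given. Taking each library's deviation from its group mean removes those differences, and the median r was then 0.24, with 7 pairs negative. Slc7a5 and Slc1a4 then had an r of 0.89, Slc7a1 and Slc7a5 0.70, and Slc7a1 and Slc1a4 0.68. The pair of Slc7a5 and its heavy chain Slc3a2 had an r of 0.71 over all libraries and 0.43 within groups. Slc38a2 had an r of -0.47 with Slc7a5 and 0.57 with Slc6a9 within groups.

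**Figure D4:**
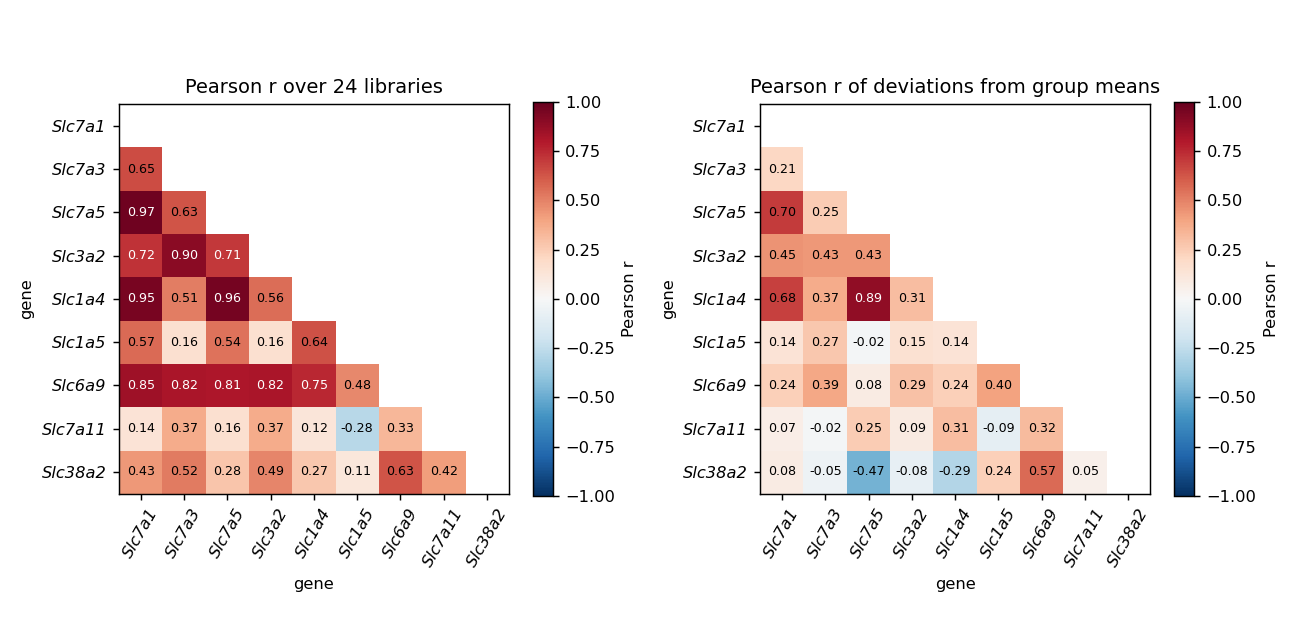
Pearson r between the log CPM of each pair of the 9 genes, over the 24 libraries (left) and for deviations from the group means (right), with the value in each cell. Slc7a1, Slc7a5 and Slc1a4 have the highest values in both panels, 0.95 to 0.97 on the left and 0.68 to 0.89 on the right.

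Among the other 16682 genes, those whose log CPM most resembled the mean profile of the 9 over the 24 libraries were Chac1 (r of 0.922), Trib3 (0.903), Pck2 (0.898), Hrk (0.886) and Mthfd2 (0.851). All r values of this paragraph include the group differences described above, and r within groups was not computed for these genes. Chac1 encodes an enzyme that degrades glutathione, Trib3 a pseudokinase, Pck2 the mitochondrial phosphoenolpyruvate carboxykinase, Hrk a BH3-only protein, and Mthfd2 a mitochondrial folate enzyme. Chac1 was at 25.5 ± 2.47 CPM (SD, n = 4) in the 3 h controls, 9.79 ± 0.763 in those of 24 h and 36.6 ± 10.3 after 24 h of 10 µM. Hrk was near the lower end of detection, at 0.989 ± 0.254 CPM in the 24 h controls and 4.39 ± 0.914 after 24 h of 10 µM. Taken gene by gene, Mthfd2 was among the closest 2 genes for Slc1a4 (0.98), Slc7a5 (0.959) and Slc7a1 (0.956). The closest genes were Trib3 for Slc3a2 (0.933), Aldh1l2 for Slc7a3 (0.888), Phf10 for Slc6a9 (0.888), Terf1 for Slc1a5 (0.819), Sort1 for Slc7a11 (0.741) and Xiap for Slc38a2 (0.911). Trib3 was second for Slc6a9 (0.871).

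Related gene lists were described in the same comparison of 10 µM BPDP with DMSO at 24 h. The lists named other plasma membrane and lysosomal amino acid transporters were made by gene symbol. Where in the cell each carrier sits was not checked. Of the 38 genes of the plasma membrane list 23 had enough reads. Of these 2 were called higher and 0 lower, with a median log2 fold change of 0.21. These were Slc1a3, a glutamate carrier, with 0.78 (SE 0.101), and Slc6a17, a neutral amino acid carrier, with 0.34 (SE 0.0892), whose call was lost in 7 of the 8 fits that left out 1 library, all but that without control replicate 2. With the replicate block 5 of the list were called higher, as with DESeq2 and without control replicate 2. With all 24 libraries in 1 fit 6 were, and with the term that separates replicates 1 and 2 from 3 and 4 there were 4. Without treated replicate 3, the low-Xist library, there was 1, and Slc6a17 was lost (adjusted p 0.0706). Without control replicate 3 or 4, or any treated library, 1 was. Of 5 lysosomal amino acid transporter genes tested, 1 was called higher, the cystine exporter Ctns with 0.39 (SE 0.0914), a call lost without control replicate 4 or without treated replicate 1, 2 or 4, while 2 of the list were called without control replicate 2.

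Of 15 integrated stress response kinases and regulators 6 were called higher and 0 lower, with a median of 0.33. Nupr1 had a log2 fold change of 1.18, Atf3 of 1.09, Ddit3 (CHOP) of 1.05 and Atf5 of 1.01. Atf4 itself had 0.64 (SE 0.159, edgeR adjusted p 0.0362), from 192 ± 49.6 CPM in the controls to 296 ± 26.7 CPM (SD, n = 4), and its call was lost in 7 of the 8 fits that left out 1 library (all but that without control replicate 1), at up to 0.101. Ddit3 was lost without control replicate 4 or treated replicate 1 or 3, and Nupr1 without control replicate 4. Without treated replicate 3, the low-Xist library, 4 of the list were called, Atf4 (adjusted p 0.101) and Ddit3 (0.0513) being lost. Leaving out 1 library gave 3 to 8, with 3 without control replicate 4. For the kinase genes Eif2ak1, Eif2ak2, Eif2ak3 and Eif2ak4 the treated and control ranges overlapped. Their mean CPM were 56, 25, 43.4 and 37.8 with 10 µM, and 59, 28.3, 36.9 and 40.2 in the controls.

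Of 13 integrated stress response targets 9 were called higher and 0 lower, with a median of 0.98. This list, like the 9 transporters, was chosen with earlier results known, so nothing is read from how their medians compare. Asns, asparagine synthetase, rose by a log2 fold change of 0.98 (SE 0.174). Trib3 had 2.34, the hormone gene Fgf21 2.12 and Chac1 1.92. Gdf15, another secreted factor, had 2.97 with a wide SE of 0.743, an edgeR adjusted p of 0.0498 and 0.0707 with the replicate block, and it passed without 1 library only where that was control replicate 1 or 3. Without treated replicate 3, the low-Xist library, 7 targets were called, and Gdf15 was not (0.12). Of 8 genes of serine and glycine synthesis and use 3 were called higher, Aldh1l2 with 1.82, Mthfd2 with 1.04 and Psph with 0.79, and 5 were with the replicate block or without control replicate 3.

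Of 10 genes of NRF2, its targets and glutathione synthesis 1 was called higher, the heme oxygenase Hmox1 with 0.58 (SE 0.121), and 2 were without control replicate 2 or with all 24 libraries in 1 fit. Nfe2l2, which encodes NRF2, had 0.07 (SE 0.125), and the list's median was 0.06. Of 22 genes of mTORC1 and amino acid sensing 0 were called by edgeR, with 3 at an unadjusted p under 0.05, and 1 was called higher without control replicate 1 or with the replicate block. DESeq2 called 1 higher and 1 lower, and the median was 0.07. Whether the lists differ from each other was not tested.

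**Figure D5:**
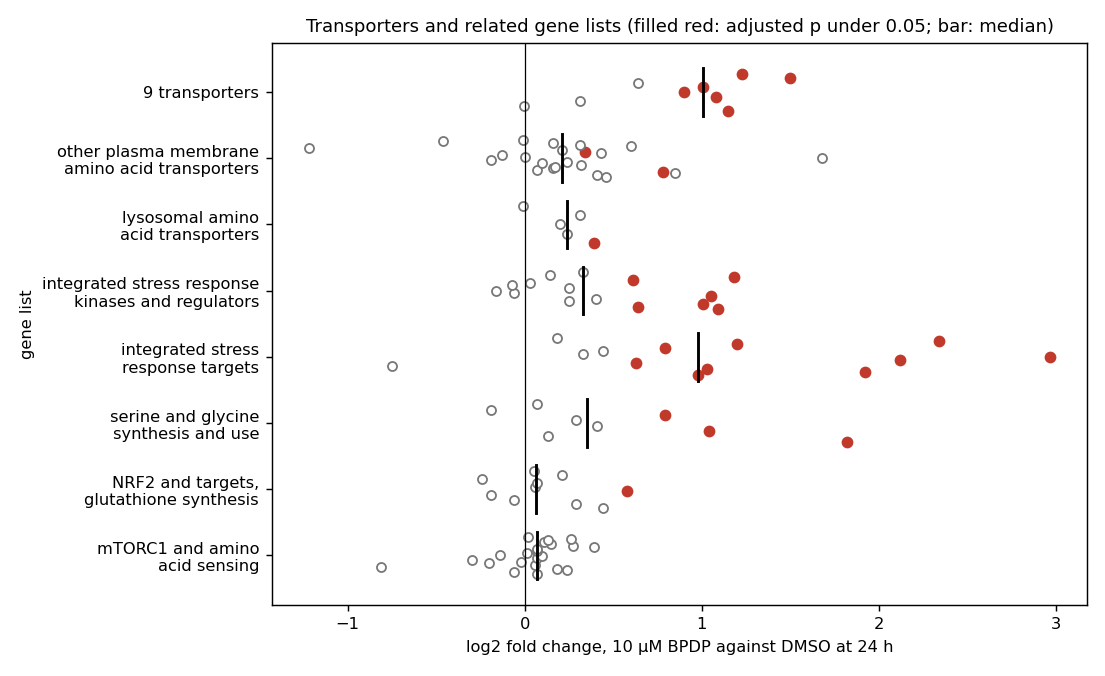
Log2 fold change of each gene tested, 10 µM BPDP against DMSO at 24 h, for the 9 transporters and 7 related lists, with a black bar at the list's median and red where the edgeR adjusted p was under 0.05. The medians are 1.01 for the 9 transporters, 0.98 for integrated stress response targets and 0.33 for its kinases and regulators. They are 0.35 for serine and glycine genes, 0.24 for lysosomal and 0.21 for other plasma membrane transporters. They are 0.07 for mTORC1 and amino acid sensing and 0.06 for the NRF2 list. All lists were chosen with earlier results known.

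In the controls over time, 6 of the 13 integrated stress response targets were called lower and 0 higher. Chac1 had a log2 change of -1.36, Asns of -1.0, Trib3 of -0.96 and Gpt2 of -0.82. Without the libraries with low Xist 5 were called lower, and Trib3 was lost (-0.91, adjusted p 0.0948). Of the 8 serine and glycine genes 6 were called lower, among them Mthfd2 with -1.02. This count was 2 without the low-Xist libraries, which in this comparison are all 3 h controls. It was 2 without 3 h control replicate 3 and 3 without replicate 1 or 4 of that group. Of the 15 kinases and regulators 1 was called higher and 1 lower, Atf5 with 0.44 and Atf3 with -0.82. Atf4 had -0.10 (SE 0.156), and Ddit3 -0.19 (SE 0.208). Of 22 other plasma membrane transporters tested 1 was called higher and 1 lower, Slc7a7 with 0.64 and Slc38a1 with -0.39, calls lost in 7 and 6 of the 8 fits that left out 1 library. This list had 3 called higher and 0 lower without 24 h control replicate 3, 3 and 1 with the replicate block, 4 and 1 with the term that separates replicates 1 and 2 from 3 and 4, 4 and 2 with all 24 libraries in 1 fit, and 2 and 1 with DESeq2. Without the libraries with low Xist Slc7a7 (adjusted p 0.171), Slc38a1 (0.276), Atf5 (0.159) and Atf3 (0.215) all lost their calls. The calls of Atf5 and Atf3 were lost in 2 and 5 of them. Those of Slc7a7 and Slc38a1 held without 24 h control replicate 2, and that of Slc38a1 also without 3 h control replicate 4. Atf5 was lost without 3 h control replicate 2 or 3, and Atf3 without 3 h control replicate 1, 2 or 4 or 24 h control replicate 1 or 2. The 24 h controls of this comparison are also those of the 10 µM comparison.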

How the data were processed

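RNA-seq counts of 24 libraries (6 groups of 4, by the labels) were analysed. Per the submitters' processing notes, CASAVA 1.8, STAR 2.5, HTSeq 0.6.1 and DESeq2 were used on mm10, and their roles are not given in the sources used here. The authors deposited 5 pairwise tables of raw read counts per gene and library, with their own log2 fold changes and p-values and with gene lengths in bases, and another 50 columns were not used. Counts repeated between tables differed in 0 of 413504 cells, and the tables were joined into 25844 genes. Within groups no library was a near copy of another (lowest chi-square per degree of freedom 4.7).

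CPM are counts scaled to a library total of 1000000, with no further factor. Fold changes came from edgeR 4.0.16 (R 4.3.3) with TMM factors (0.916 to 1.1), filterByExpr (minimum count 10, minimum total 15), a robust quasi-likelihood test and Benjamini-Hochberg adjustment over all genes tested, called under 0.05. The SE printed for edgeR is the absolute log2 fold change divided by the square root of the F statistic of that test. The 8 libraries of a comparison were fitted alone. Contrasts between doses and between times came from 1 fit of 24 libraries. Log CPM for correlations used a prior count of 2. The fits were also run on simulated counts, which had the same spread setting for every gene and no replicate structure. That run checks the code and not the calls made here. DESeq2 1.42.0 and 7 other settings were tried as alternatives.

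The members and all lists were chosen with earlier results of these data known. The rule for named genes was all members, Atf4, Ddit3, Asns and Nfe2l2, up to 4 called and 2 uncalled genes of each other list per comparison, and the genes most alike (5 for the mean, 2 for each member). Whether replicate numbers pair libraries was checked by correlating same-numbered libraries' deviations from group means, with a bound of 0.1 for every pair. At 24 h all 4 pairs passed for 10 µM (0.14 to 0.361) and 1 µM (0.153 to 0.343). At 3 h the answer depends on the genes used. A first check on the 16691 genes of the 24-library fit put 3 of 4 pairs over the bound for 10 µM (lowest 0.0802) and for 1 µM (lowest 0.0951). A second, made after that result was seen, on the genes tested in each comparison, put 4 of 4 over it (lowest 0.106 and 0.11). By this bound pairing therefore held at 24 h only, where both checks pass. Even there, replicate 1 of the 10 µM comparison correlated more with another number (0.226) than with its own (0.14). The reported fits hold no term for pairing at either time, and the replicate block is given as an alternative.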

Additional observations from a re-analysis of the deposited data

Results flagged for a closer look

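In 7 of 54 sets of 4 libraries (9 genes in 6 groups) 1 library lay far from the other 3, by Dixon's ratio of gap to range; chance flags about 1 in 20 sets. In the 24 h controls Slc3a2 was at 163 CPM in replicate 1 and 97.7 to 107 in the others. With 10 µM BPDP at 3 h, Slc38a2 was at 374 CPM in replicate 1 against 302 to 314, Slc6a9 at 48.4 in replicate 1 against 37.1 to 38.4, and Slc1a5 at 31.5 in replicate 3 against 40 to 41.1. With 10 µM at 24 h, Slc1a5 was at 30.2 CPM in replicate 4 against 26.3 to 26.6. With 1 µM, Slc7a11 was at 30.1 CPM in replicate 4 at 3 h against 17.4 to 19.1, and Slc38a2 at 230 CPM in replicate 1 at 24 h against 276 to 283.

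The log2 difference between 10 µM BPDP and DMSO was larger at 24 h than at 3 h, by the contrast of both in edgeR, by 0.99 for Slc7a5, 0.98 for Slc7a3, 0.89 for Slc1a4, 0.83 for Slc3a2 and 0.71 for Slc7a1.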

How the results depend on the processing

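The alternatives were median-of-ratios (RLE) factors, DESeq2, no count filter, all 24 libraries in 1 fit, a replicate block and a term for replicates 1 and 2 against 3 and 4. Others left out the libraries of a fit with Xist under 1 CPM, or each library in turn. Applying the alternatives to genes and counts of the other lists was chosen after seeing the data. At 24 h the members called with 10 µM BPDP numbered 6 to 8, and 6 to 7 with 1 library left out, and the 6 members called against DMSO passed in each of those fits. At 3 h the number called was 0 in the reported fit, with RLE, with all 24 libraries and in each of the 8 fits without 1 library, but 3 with DESeq2, 1 with no count filter, 2 with the replicate block, 4 with the term for replicates 1 and 2 and 1 without the libraries with low Xist; the cause was not tested. The members whose 10 µM difference was larger at 24 h numbered 5, 3 without the libraries with low Xist and 4 to 5 without 1 library. Members called in the controls over time numbered 3 to 4.

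Pairing by replicate number depends on the genes used at 3 h, so the block's 2 calls there, Slc7a1 (adjusted p 0.049) and Slc38a2 (0.0302), rest on an unsettled pairing. In the controls over time 3 of 4 pairs passed the bound with either gene set, and with the block 4 members were called, the fourth being Slc6a9 (0.0435). Libraries correlated best with their own number for 3 of 4 numbers with 10 µM at 24 h and, at 3 h, for 2 of 4 with the genes tested and 1 of 4 with those of the 24-library fit. Apart from these, Slc7a11 and Slc38a2 at 24 h, the block changed no call of a member.

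All genes called with 10 µM at 24 h numbered 963, against 1645 with the block, 1870 with 24 libraries, 555 without low-Xist libraries, 1497 with DESeq2 and 491 to 1242 without 1 library. At 3 h 1 gene became 451 with DESeq2, 142 with no count filter, 335 with the block, 446 with the replicate term, 31 without low-Xist libraries, 52 with 24 libraries and up to 11 without 1 library. In the controls over time 1494 became 2739 with 24 libraries, 697 without low-Xist libraries and 791 to 1600 without 1 library. With 1 µM at 24 h 12 became 58 with DESeq2, 95 with 24 libraries and 7 to 12 without 1 library. For 10 against 1 µM at 24 h 559 became 841 with DESeq2, 144 without low-Xist libraries and 275 to 734 without 1 library, and for the 10 µM difference between times 432 became 681 with DESeq2 and 216 without low-Xist libraries.

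Directions were followed for the 9 members and for the named genes of the other lists, and those that changed belonged to members, Nfe2l2 and Atf4, with small differences that no fit called. Without the low-Xist libraries the log2 values with 1 µM at 3 h were -0.05 for Slc7a5, 0.02 for Slc3a2, -0.03 for Slc1a4, 0.03 for Slc1a5 and 0.11 for Slc6a9, that of Slc7a5 with 1 µM at 24 h was 0.0078, and the 1 µM difference between times was 0.26 for Slc7a3, 0.06 for Slc7a5 and -0.01 for Slc7a11. Without 1 library, ranges that crossed 0 were, with 1 µM at 3 h, -0.0083 to 0.08 for Slc7a1, -0.03 to 0.04 for Slc7a5, -0.06 to 0.03 for Slc3a2, -0.06 to 0.07 for Slc1a4, -0.12 to 0.04 for Slc6a9 and -0.06 to 0.21 for Slc7a11. With 1 µM at 24 h they were -0.03 to 0.08 for Slc7a1, -0.11 to 0.08 for Slc7a5 and -0.29 to 0.04 for Slc3a2. Between times with 1 µM they were -0.08 to 0.02 for Slc7a1, -0.13 to 0.11 for Slc7a3, -0.12 to 0.07 for Slc7a5, -0.29 to 0.04 for Slc3a2, -0.14 to 0.03 for Slc1a5 and -0.16 to 0.02 for Slc6a9. For Slc1a5 with 10 µM at 24 h, reported as -0.0019, the value was 0.0029 with RLE, 0.0044 with DESeq2, 9.5e-05 with no count filter and 0.0059 without the low-Xist libraries, and -0.05 to 0.04 without 1 library. The other ranges were -0.23 to 0.24 for Slc7a11 in the controls over time, -0.0069 to 0.15 for Nfe2l2 with 10 µM at 24 h and -0.28 to 2.3e-05 for Atf4 in the controls over time.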
